A study of Mus musculus with 9 samples.

Results

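The genes described here are those of the mitochondrial genome of the mouse, chosen as every gene on the mitochondrial chromosome, whose symbols begin with mt-. There are 37 of them, 13 for mRNAs, 2 for rRNAs and 22 for tRNAs, and 34 had at least 1 count among the 26602 genes counted in midbrain. The libraries came from midbrain tissue containing the SNpc, the part of the midbrain whose dopaminergic neurons are lost in Parkinson's disease, of mice aged 3 to 4 months, 4 of them DJ-1+/+ and 5 DJ-1-/-. No treatment was given. The DJ-1-/- mice were homozygous for a targeted, Neo-tagged allele of Park7, the gene of the chaperone DJ-1, in animals backcrossed for 7 generations to C57BL/6. Heterozygous parents were used, so that DJ-1+/+ mice were littermates, and the genotypes shared cages. Every cell of the animal carries the allele, and the tissue was sequenced whole, as a mixture of neurons and glia. Sex was not given in the sample labels. The measurement was the number of unique molecular identifiers (UMIs, tags that mark single cDNA molecules) assigned to each gene in 3′ mRNA-seq libraries, and replicate numbers are those of the sample labels.

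Mitochondrial DNA is read from both strands into long precursors that carry mRNAs, rRNAs and tRNAs in a row. The tRNAs are cut out and so release the mRNAs, most of which then receive a short poly(A) tail made by mitochondrial poly(A) polymerase. The mRNAs encode subunits of complexes I, III, IV and V of oxidative phosphorylation, while the other subunits, and all proteins that copy and read the mitochondrial genome, come from nuclear genes. DJ-1 protects mitochondria against oxidative stress, and complex I defects are a known feature of Parkinson's disease. Nuclear chromosomes also hold copies of mitochondrial DNA, old insertions that are annotated as pseudogenes.

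Park7 had 105 to 132 counts in the DJ-1+/+ and 14 to 29 counts in the DJ-1-/- libraries. Library totals ran from 841974 to 886085 counts in DJ-1+/+ and from 967751 to 1098125 counts in DJ-1-/- mice, so that every DJ-1-/- library was deeper and the means stood in a ratio of 1.17. Depth and genotype therefore cannot be told apart, and levels are given as cpm, the number of counts of a gene in every 1000000 of its library, beside the raw counts. A floor of 3 counts was between 2.73 and 3.56 cpm. All 9 marker lists examined, for choroid plexus, cerebellar neurons, dopaminergic neurons, neurons, oligodendrocytes, astrocytes, microglia, endothelium and blood, had counts for every gene listed. Summed choroid plexus markers were highest in DJ-1+/+ replicates 4 and 1, at 999 and 441 cpm against 175 to 299 cpm in the other libraries. DJ-1+/+ replicate 1 was also highest for cerebellar markers, at 1251 cpm against 347 to 599 cpm elsewhere. Dopaminergic markers summed to between 525 and 966 cpm in DJ-1+/+ and between 759 and 1025 cpm in DJ-1-/- mice.

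On the mitochondrial chromosome of GRCm38 (chrM, GENCODE M21), 28 of the 37 genes lie on the plus strand of the annotation, here called heavy-strand genes after the promoter they are read from, and 9 lie on the minus strand. The 9 light-strand genes are mt-Nd6 and 8 tRNA genes. Genes touch or overlap, so that some bases belong to more than 1 gene. The end of mt-Atp8 and the start of mt-Atp6 share 43 bases, mt-Nd4l and mt-Nd4 share 7, and mt-Nd5 and mt-Nd6 share 14 on opposite strands. The sequences below are the last 60 bases of mt-Atp8 (chrM:7910-7969, plus strand, capitals shared with mt-Atp6) and of mt-Nd5 (chrM:13506-13565, plus strand, capitals shared with mt-Nd6), shown because reads in the capitals fit both genes of a pair.
mt-Atp8: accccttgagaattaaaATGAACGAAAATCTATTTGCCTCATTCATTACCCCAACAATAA
mt-Nd5: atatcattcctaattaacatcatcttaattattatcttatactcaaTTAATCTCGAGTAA

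A search of all nuclear transcripts of the same annotation with the mitochondrial sequence found 11 pseudogenes with a match of at least 100 bases at 95% identity or more. Of these, 7 lie side by side on chromosome 1 (chr1:24611535-24616197, minus strand) and mirror the mitochondrial bases from 6390 to 11042, from the last part of mt-Co1 to the first part of mt-Nd4, with an identity of at least 99.71%. The distance between pseudogenes was exactly that between the mitochondrial genes for 5 of the 7, and the other 2 were shifted by 1 base. Another 3 lie on chromosome 2 and 1 on chromosome 13, with identities from 95.178% to 97.605%. The whole of Gm28661 (681 bases), Gm10925 (678 bases) and Gm28437 (783 bases) was identical to mt-Co2, mt-Atp6 and mt-Co3, and the 294 bases of Gm10222 to mt-Nd4l. The 876 bases of Gm28439 were identical to a part of mt-Nd4.

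The window of 90 bases near the 3′ end of mt-Co2, in which a 3′ library reads, shows how near the copies are (mt-Co2, chrM:7604-7693, plus strand; Gm28661, chr1:24614885-24614974, minus strand; Gm13341, chr2:22587294-22587383, minus strand). Capitals mark bases that differ from the mitochondrial gene.
mt-Co2: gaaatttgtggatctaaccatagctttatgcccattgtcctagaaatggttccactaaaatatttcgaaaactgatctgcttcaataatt
Gm28661: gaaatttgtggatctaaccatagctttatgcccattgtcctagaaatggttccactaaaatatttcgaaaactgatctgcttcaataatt
Gm13341: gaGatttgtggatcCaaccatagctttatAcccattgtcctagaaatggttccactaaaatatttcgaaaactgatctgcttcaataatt
Gm28661 had 0 differences from mt-Co2 there. Gm13341 had 3, which were A594G, T606C and G621A with the mitochondrial base first and positions counted from 1 at the 5′ end of mt-Co2.

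The same holds at the end of mt-Atp6 (chrM:8515-8604, plus strand) and its copy Gm10925 (chr1:24613974-24614063, minus strand), with 0 differences.
mt-Atp6: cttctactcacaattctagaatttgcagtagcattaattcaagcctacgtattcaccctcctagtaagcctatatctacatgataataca
Gm10925: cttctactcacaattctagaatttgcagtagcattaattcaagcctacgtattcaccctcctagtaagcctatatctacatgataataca

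The end of mt-Co1 (chrM:6783-6872, plus strand) is copied as closely, in Gm29216 (chr1:24615706-24615795, minus strand), and less closely in Gm13340 (chr2:22588103-22588192, minus strand), and it is shown because mt-Co1, unlike mt-Co2, held many counts.
mt-Co1: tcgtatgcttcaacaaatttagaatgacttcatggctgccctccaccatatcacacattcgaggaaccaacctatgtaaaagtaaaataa
Gm29216: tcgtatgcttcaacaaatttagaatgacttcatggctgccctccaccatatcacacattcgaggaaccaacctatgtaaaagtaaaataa
Gm13340: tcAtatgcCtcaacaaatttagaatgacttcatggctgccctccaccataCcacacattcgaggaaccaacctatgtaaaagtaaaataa
Gm29216 had 0 differences in this window, and Gm13340 had 3, which were G1458A, T1464C and T1506C, counted from the 5′ end of mt-Co1. How reads that fit several places were assigned is not given in the sources used here, and the part of the copies in the counts was not tested.

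The count of a mitochondrial gene differed with its position. The 11 genes inside the stretch copied on chromosome 1 had a median of 28 counts over the 9 libraries together, against a median of 814 for the 24 genes outside it, and mt-Co1 and mt-Nd4, which cross its ends, had 3464 and 1349. These groups were formed after the counts had been seen. The search covered annotated nuclear transcripts only. It found at most 4.35% of the length of each of the 5 tRNA genes inside in a copy, and 21.1% of mt-Atp8. These genes were placed in the stretch by position, and a full copy of them was not seen. Inside the stretch, mt-Ts1, mt-Td and mt-Tk had 0 counts in every library, which allows a level up to the floor of 3 counts, and mt-Atp8 had 6 in all. The 5 tRNA genes inside had at most 28 counts over the 9 libraries, whereas the 17 tRNA genes outside ranged from 6 to 2001 with a median of 458. Outside, mt-Ty with 6 counts was the single gene with fewer than 10. Closeness to a copy did not go with a low count in every case, since mt-Nd4l had 34 to 49 counts in every library while its copy Gm10222 had 0 or 1.

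**Figure D1:**
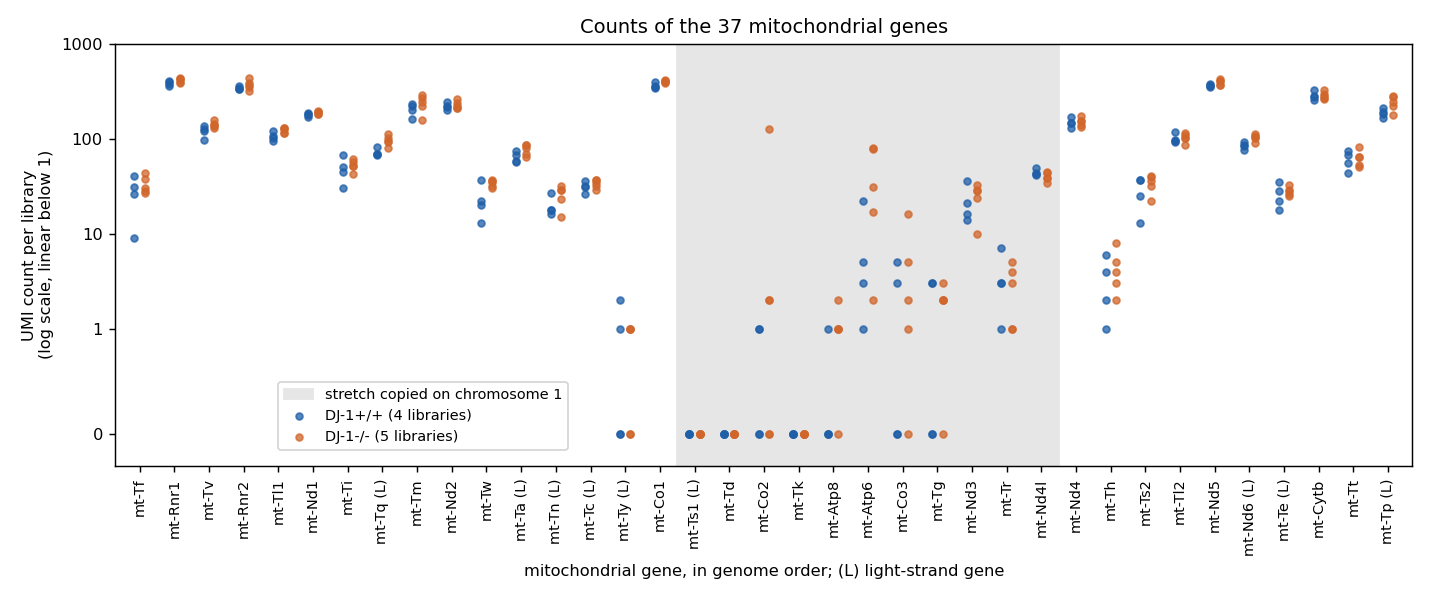
UMI counts per library (vertical axis, logarithmic above 1 and linear below) of the 37 mitochondrial genes in genome order (horizontal axis), with 1 point for each of 4 DJ-1+/+ (blue) and 5 DJ-1-/- (orange) libraries. The genes in the grey stretch, which is copied on chromosome 1, have at most 7 counts in every library, except mt-Nd4l, mt-Nd3, mt-Atp6, and DJ-1-/- replicate 1 of mt-Co2 (126 counts) and of mt-Co3 (16 counts).

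The chromosome 1 pseudogenes Gm28661, Gm10925 and Gm28437 held counts where their mitochondrial counterparts mostly held few, which was not so for the others. mt-Co2, a core subunit of cytochrome c oxidase (complex IV), had 0, 1, 1 and 0 counts in DJ-1+/+ replicates 1 to 4 and 126, 2, 0, 0 and 2 in DJ-1-/- replicates 1 to 5. A single library, DJ-1-/- replicate 1, thus held 126 of the 132 counts of the gene. Gm28661 had 69, 64, 65 and 66 counts in DJ-1+/+ and 81, 117, 85, 72 and 88 in DJ-1-/- mice, and its count in DJ-1-/- replicate 1 was within the range of the other DJ-1-/- libraries. The sum of mt-Co2 and Gm28661 was 76.8 ± 3.67 cpm (n = 4, SD) in DJ-1+/+ and 113 ± 54.0 cpm (n = 5, SD) in DJ-1-/- mice, with DJ-1-/- replicate 1 at 207 counts. No DJ-1+/+ library had more than 1 count, so the fold change of mt-Co2 printed further below rests on DJ-1-/- replicate 1. Without that library the gene fell under the minimum count for testing.

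mt-Atp6, which forms the proton channel of ATP synthase (complex V), had 3, 1, 22 and 5 counts in DJ-1+/+ and 31, 17, 81, 2 and 79 in DJ-1-/- mice. The genotypes overlapped, with DJ-1-/- replicate 4 among the lowest libraries and DJ-1+/+ replicate 3 above 2 DJ-1-/- libraries. Its copy Gm10925 had 90, 100, 110 and 89 counts in DJ-1+/+ and 119, 104, 83, 103 and 70 in DJ-1-/- mice, so that the libraries highest for mt-Atp6, DJ-1-/- replicates 3 and 5, were the lowest for Gm10925. The sum of the pair was 121 ± 21.9 cpm (n = 4, SD) in DJ-1+/+ and 137 ± 26.5 cpm (n = 5, SD) in DJ-1-/- mice, a difference within the spread of the libraries. mt-Atp8, the small partner of mt-Atp6 in ATP synthase, had 0 to 1 counts in DJ-1+/+ and 0 to 2 in DJ-1-/- libraries. Whether these counts measure an RNA apart from that of mt-Atp6 was not tested.

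mt-Co3, the third mitochondrial subunit of cytochrome c oxidase, had 5, 0, 3 and 0 counts in DJ-1+/+ and 16, 5, 2, 0 and 1 in DJ-1-/- mice. Its copy Gm28437 had between 90 and 101 counts in DJ-1+/+ and between 85 and 98 in DJ-1-/- libraries. In cpm Gm28437 was at 111 ± 6.79 (n = 4, SD) in DJ-1+/+ and 92.3 ± 8.13 (n = 5, SD) in DJ-1-/- mice, with an unadjusted p of 0.00827 and an adjusted p of 0.999971 in edgeR's quasi-likelihood test. It was the 1 gene with an unadjusted p under 0.05 among the 10 pseudogenes tested. For mt-Nd3, a small complex I subunit, the relation was turned in 8 of the 9 libraries, with 14 to 36 counts in DJ-1+/+ and 10 to 33 in DJ-1-/- libraries against 8 to 12 and 8 to 24 counts of its copy Gm28438. mt-Nd3 was at 25.3 ± 12.2 cpm (n = 4, SD) in DJ-1+/+ and 24.4 ± 8.73 cpm (n = 5, SD) in DJ-1-/- mice. Gm29216, the near copy of the mt-Co1 end, had 37 to 73 counts per library, and Gm13341, the second copy of mt-Co2, had 61 to 84. In contrast to the pair of mt-Co2 and Gm28661, mt-Co1 exceeded Gm29216 in all 9 libraries, with 340 to 417 counts. mt-Nd4, with 130 to 176 counts per library, exceeded Gm28439, with 2 to 20, but this pair is unlike that of mt-Co1. Gm28439 matches mt-Nd4 only up to base 11042, while mt-Nd4 ends at base 11544. The 3′ end of mt-Nd4, in which a 3′ library reads, had no match in the search.

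**Figure D2:**
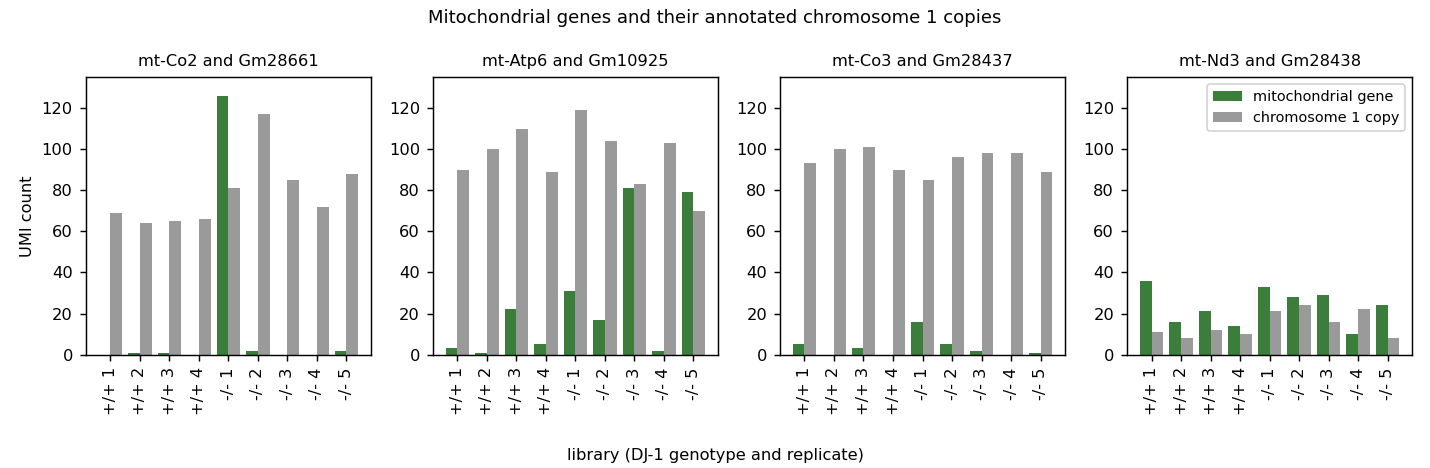
UMI counts (vertical axis) in each of 9 libraries (horizontal axis, DJ-1 genotype and replicate) of 4 mitochondrial genes (green bars) and of their chromosome 1 copies (grey bars). The grey bars stand in every library, whereas mt-Co2 reaches 126 counts in 1 library and at most 2 in the others.

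Of the 37 mitochondrial genes, 32 reached 10 counts over the 9 libraries and were compared between the genotypes in a fit over 18127 genes. None had an adjusted p under 0.05 (edgeR's quasi-likelihood test, Benjamini-Hochberg adjustment; 0.00552% of all genes tested did, which is Park7), and the lowest adjusted p among them was 0.999971. An unadjusted p under 0.05 was reached by 4 genes, against 2.83% of all genes tested. mt-Co2 and mt-Atp6 were higher in DJ-1-/- mice (1.57% of all genes tested were called higher), and mt-Cytb and mt-Nd4l were lower (1.26% were called lower). The higher pair belongs to the stretch copied on chromosome 1 and rests on the uneven counts given above. Without the 11 genes of that stretch, 1 of 25 genes tested, mt-Cytb, had an unadjusted p under 0.05. Over the 32 genes the log2 fold change, DJ-1-/- over DJ-1+/+, was above 0 for 14 and below 0 for 18, with a median of -0.03 beside 0.01 over all genes tested. In whole tissue, fewer cells of a type and less RNA per cell cannot be told apart.

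The mitochondrial genome supplied a small and similar share of the deposited counts of each library. No gene of any kind had more than 1359 counts in a library. How far these shares follow the RNA of the tissue was not tested. The 37 genes together held 3281 to 3881 counts in DJ-1+/+ and 3712 to 4303 counts in DJ-1-/- libraries. As a share of all counts this was 0.461%, 0.373%, 0.415% and 0.408% in DJ-1+/+ replicates 1 to 4 and 0.431%, 0.387%, 0.415%, 0.394% and 0.362% in DJ-1-/- replicates 1 to 5. The means were 0.414% ± 0.0362 (n = 4, SD) and 0.398% ± 0.0264 (n = 5, SD), and the difference of -0.0164 percentage points was smaller than either SD. Without DJ-1+/+ replicate 1, which had the highest share and the highest cerebellar markers, the difference was -0.000794 percentage points, and without DJ-1+/+ replicates 1 and 4 together it was 0.00387. The part of the marker differences in these values was not tested further.

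The classes of transcript moved little as well. mRNA genes made up 0.199% ± 0.0166 (n = 4, SD) of all counts in DJ-1+/+ and 0.188% ± 0.0141 (n = 5, SD) in DJ-1-/- mice. rRNA genes made up 0.0840% ± 0.00322 and 0.0779% ± 0.00612, with DJ-1-/- replicate 3 the highest of all libraries at 0.0885%. tRNA genes made up 0.131% ± 0.0191 and 0.132% ± 0.0140, and the lowest libraries were DJ-1+/+ replicate 2 and DJ-1-/- replicate 5, both at 0.107%. Within the mitochondrial counts, the 9 light-strand genes held 13.6% ± 0.356 (n = 4, SD, from 13.2% to 14.1%) in DJ-1+/+ and 15.03% ± 0.975 (n = 5, SD, from 13.7% to 16.3%) in DJ-1-/- mice. DJ-1-/- replicate 5 at 13.7% lay within the DJ-1+/+ range, and the other 4 DJ-1-/- libraries lay above it. Complex I mRNAs of the heavy strand held 27.5% ± 1.12 of the mitochondrial counts in DJ-1+/+ and 25.7% ± 0.837 in DJ-1-/- mice.

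**Figure D3:**
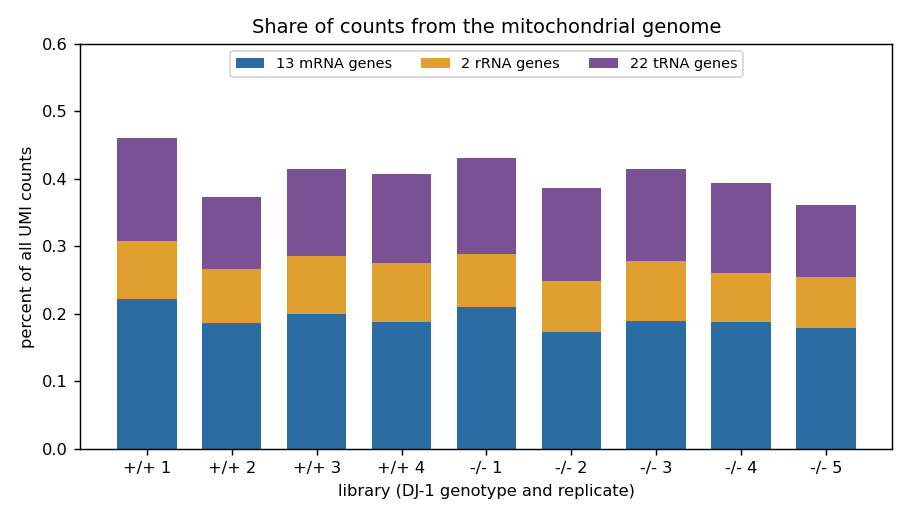
Share of all UMI counts (vertical axis, percent) from mitochondrial mRNA, rRNA and tRNA genes, stacked, in each of 9 libraries (horizontal axis, DJ-1 genotype and replicate). The stacks reach between 0.373% and 0.461% in the 4 DJ-1+/+ and between 0.362% and 0.431% in the 5 DJ-1-/- libraries, and the ranges overlap.

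The 7 complex I subunits encoded in mitochondria, which carry the membrane arm of the enzyme, were all tested, and 6 had a log2 fold change below 0, of which mt-Nd3 changed sign under some alternatives, with a median of -0.15 beside 0.01 over all genes tested. mt-Nd1 had 187, 172, 179 and 184 counts in DJ-1+/+ and 197, 185, 190, 194 and 185 in DJ-1-/- mice. At almost the same raw counts, the greater depth of the DJ-1-/- libraries set its level at 208 ± 10.9 cpm (n = 4, SD) in DJ-1+/+ and 188 ± 13.6 cpm (n = 5, SD) in DJ-1-/- mice, a log2 fold change of -0.15 (SE 0.07). mt-Nd2 had 201 to 246 counts in DJ-1+/+ and 214 to 260 in DJ-1-/- libraries, which is 256 ± 27.6 cpm (n = 4, SD) and 227 ± 19.8 cpm (n = 5, SD). Both overlapped between the genotypes, with unadjusted p of 0.0655 for mt-Nd1 and 0.0573 for mt-Nd2 in edgeR's quasi-likelihood test.

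mt-Nd4l, another membrane arm subunit, was the 1 gene of the 32 for which the ranges of cpm in the genotypes stood apart (they did so for 1.25% of all genes tested). It had 43, 49, 42 and 44 counts in DJ-1+/+ and 45, 44, 34, 39 and 39 in DJ-1-/- mice. As raw counts the genotypes overlapped, and the ratio of the mean counts was 0.903 while the library totals stood at 1.17. In cpm the gene fell between 48.9 and 55.7 in DJ-1+/+ and between 35.1 and 45.0 in DJ-1-/- mice. Its log2 fold change was -0.37 (SE 0.14, unadjusted p = 0.0175, adjusted p = 0.999971 in edgeR's quasi-likelihood test), and leaving out 1 library at a time kept it from -0.42 to -0.33. mt-Nd4l lies inside the copied stretch, and its last 7 bases belong to mt-Nd4 as well.

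The other complex I genes showed the same small distances. mt-Nd4 had 171, 130, 146 and 147 counts in DJ-1+/+ and 176, 154, 153, 133 and 139 in DJ-1-/- mice, which is 172 ± 23.1 cpm (n = 4, SD) and 149 ± 17.4 cpm (n = 5, SD), with overlap. mt-Nd5, the most counted complex I gene, had 356 to 377 counts in DJ-1+/+ and 368 to 425 in DJ-1-/- libraries, or 422 ± 17.4 cpm (n = 4, SD) and 392 ± 31.2 cpm (n = 5, SD). DJ-1-/- replicate 4, at 439 cpm, exceeded 3 of the 4 DJ-1+/+ libraries. mt-Nd6, the single mRNA of the light strand, differed from the others of the complex in sign. It had 84, 76, 87 and 92 counts in DJ-1+/+ and 91, 113, 108, 105 and 101 in DJ-1-/- mice, or 97.8 ± 7.80 cpm (n = 4, SD) and 102 ± 8.10 cpm (n = 5, SD), a log2 fold change of 0.07 (SE 0.09).

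mt-Cytb, the cytochrome b of complex III and the sole mitochondrial subunit of that complex, had 328, 258, 273 and 281 counts in DJ-1+/+ and 324, 297, 266, 286 and 268 in DJ-1-/- mice. DJ-1+/+ replicate 1 was the highest library, and the raw counts of the genotypes overlapped almost fully, with a ratio of means of 1.01. In cpm mt-Cytb was at 329 ± 41.7 (n = 4, SD) in DJ-1+/+ and 285 ± 25.2 (n = 5, SD) in DJ-1-/- mice. This gave a log2 fold change of -0.21 (SE 0.09, unadjusted p = 0.0315, adjusted p = 0.999971 in edgeR's quasi-likelihood test). Without DJ-1+/+ replicate 1, the library highest for cerebellar markers, it was -0.12 with an unadjusted p of 0.176. mt-Co1, the catalytic subunit of complex IV, had 395, 353, 364 and 340 counts in DJ-1+/+ and 394, 410, 387, 404 and 417 in DJ-1-/- mice, or 419 ± 36.95 cpm (n = 4, SD) and 398 ± 16.4 cpm (n = 5, SD), and the genotypes overlapped.

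The 6 heavy-strand mRNAs that were not wholly inside the copied stretch, mt-Nd1, mt-Nd2, mt-Co1, mt-Nd4, mt-Nd5 and mt-Cytb, all had a log2 fold change below 0. Each stayed below 0 under all 20 alternatives to the fit, which reuse the same libraries and are not independent support. Without DJ-1+/+ replicate 1 mt-Co1 was at -0.016 and mt-Nd5 at -0.080. The raw counts of the 6 genes were not lower in DJ-1-/- mice, since the ratios of the mean counts ran from 1.01 to 1.11. Among 3375 nuclear genes with a mean count between 100 and 500, the same ratio had a median of 1.16 with quartiles of 1.11 and 1.20, close to the 1.17 of the library totals. Over the 13 mitochondrial genes with a mean count of at least 100 the ratio had a median of 1.08 and ran from 1.01 to 1.27. Whether this comes from depth or from genotype cannot be told apart, because every DJ-1-/- library was deeper.

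**Figure D4:**
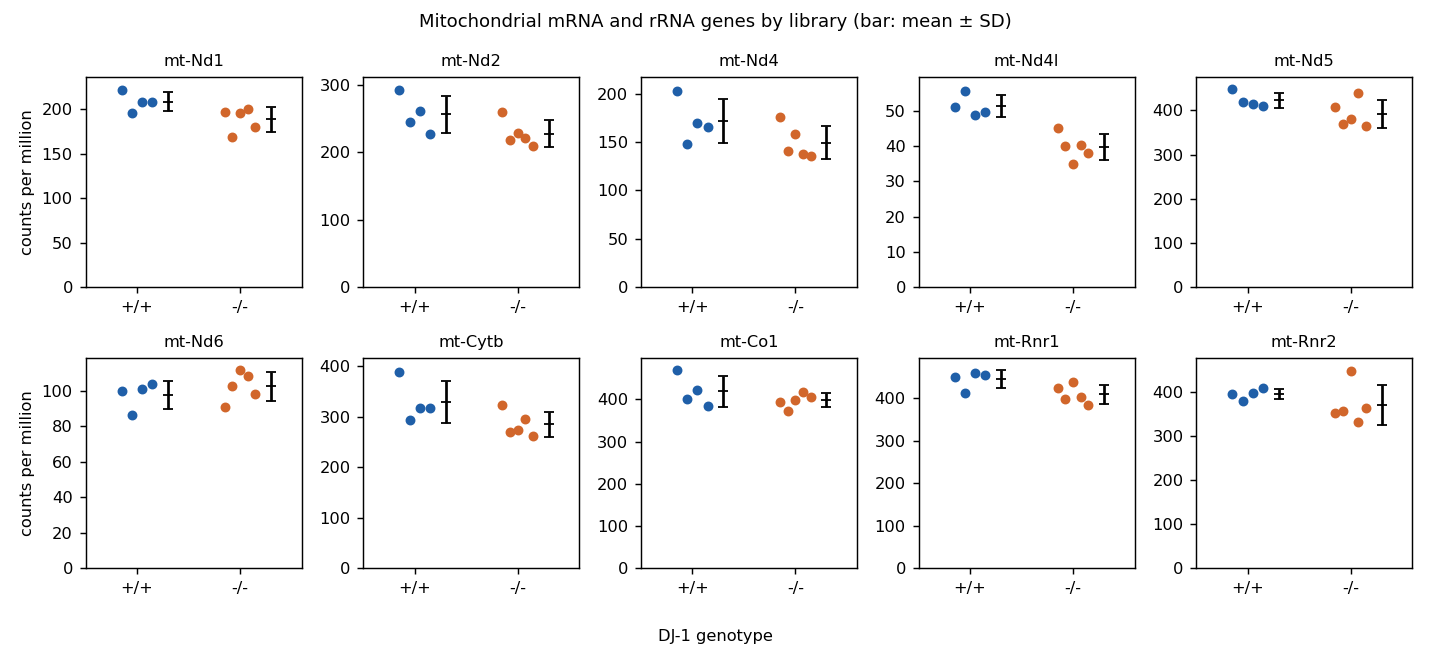
Levels in cpm (vertical axes, from 0) of 8 mitochondrial mRNA and 2 rRNA genes in each library of the 2 genotypes (horizontal axes), with 1 point for each of 4 DJ-1+/+ (blue) and 5 DJ-1-/- (orange) libraries and bars for mean ± SD. The points of mt-Nd4l do not overlap, at 48.9 to 55.7 against 35.1 to 45.0 cpm, and those of the other 9 genes do.

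Both rRNA genes were below 0 in log2 fold change. mt-Rnr1, the RNA of the small mitochondrial ribosomal subunit, was the most counted mitochondrial gene and stood at rank 16 of all genes. It had 379, 363, 395 and 403 counts in DJ-1+/+ and 424, 436, 424, 389 and 393 in DJ-1-/- mice, or 444 ± 21.5 cpm (n = 4, SD) and 409 ± 21.9 cpm (n = 5, SD), a log2 fold change of -0.12 (SE 0.06). mt-Rnr2, the RNA of the large subunit, had 333 to 363 counts in DJ-1+/+ and 321 to 434 in DJ-1-/- libraries, or 396 ± 11.9 cpm (n = 4, SD) and 370 ± 44.8 cpm (n = 5, SD). DJ-1-/- replicate 3 at 434 counts was the highest library and made the wide spread. Neither reached an unadjusted p under 0.05, with values of 0.0731 for mt-Rnr1 and 0.238 for mt-Rnr2 in edgeR's quasi-likelihood test. Without DJ-1-/- replicate 3 the log2 fold change of mt-Rnr2 was -0.17 (unadjusted p = 0.0157) in place of -0.10, and that of mt-Rnr1 -0.15 (unadjusted p = 0.0407), while the adjusted p of both remained above 0.05.

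tRNAs lack the long poly(A) tail that the library method primes on, yet 19 of the 22 tRNA genes had at least 1 count. Of these, 18 were tested, 10 with a log2 fold change above 0 and 8 below 0, with a median of 0.02, and none had an unadjusted p under 0.05. mt-Tm and mt-Tp, the tRNAs for methionine and proline, were counted most. mt-Tm had 233, 160, 223 and 203 counts in DJ-1+/+ and 272, 287, 243, 222 and 158 in DJ-1-/- mice, or 237 ± 41.6 cpm (n = 4, SD) and 234 ± 47.2 cpm (n = 5, SD). mt-Tp had 164 to 212 counts in DJ-1+/+ and 179 to 282 in DJ-1-/- libraries, or 218 ± 27.9 cpm (n = 4, SD) and 237 ± 38.6 cpm (n = 5, SD). In both the libraries ranged widely within a genotype, with DJ-1+/+ replicate 2 and DJ-1-/- replicate 5 lowest in cpm.

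mt-Tq, the light-strand tRNA for glutamine, had 70, 70, 67 and 82 counts in DJ-1+/+ and 101, 112, 96, 92 and 81 in DJ-1-/- mice, or 83.3 ± 6.53 cpm (n = 4, SD) and 95.2 ± 9.49 cpm (n = 5, SD). DJ-1-/- replicate 5 lay within the DJ-1+/+ range, and the log2 fold change was 0.19 (SE 0.10, unadjusted p = 0.0741 in edgeR's quasi-likelihood test). mt-Tv, mt-Tl1 and mt-Tl2, the tRNAs for valine and leucine, lay between 103 and 140 cpm on average in each genotype and differed between genotypes by less than the larger SD. mt-Ti, mt-Ta, mt-Tt, mt-Tf, mt-Tw, mt-Tn, mt-Tc, mt-Ts2 and mt-Te had between 9 and 86 counts in each library. mt-Th, mt-Tr and mt-Tg had 0 to 8. Of the 7 light-strand genes tested, 5 were above 0 with a median of 0.07, and of the 25 heavy-strand genes tested, 16 were below 0 with a median of -0.07. The use of strand in the counting is not given in the sources used here, so that reads of a gene and of its partner on the other strand may not be told apart.

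By cpm per kilobase of gene, over all 9 libraries, mt-Tm at 3405 and mt-Tp at 3404 were the highest of the 37 genes. Other tRNA genes ran down to 0. Among the rRNA and mRNA genes the order was mt-Rnr1 at 445, mt-Cytb at 266, mt-Co1 at 264, mt-Rnr2 at 241, mt-Nd2 at 231, mt-Nd5 at 222, mt-Nd1 at 206, mt-Nd6 at 193, mt-Nd4l at 151 and mt-Nd4 at 116. The lowest mRNA genes were mt-Nd3 at 71.3, mt-Atp6 at 39.98, mt-Co2 at 21.5, mt-Co3 at 4.68 and mt-Atp8 at 3.38 cpm per kilobase, all of them inside the copied stretch, which also holds mt-Nd4l. Counts of a 3′ library are not expected to grow with gene length, so division by length raises short genes. This order is therefore not one of RNA amount. It differs from that by counts, in which mt-Rnr1, mt-Co1, mt-Nd5 and mt-Rnr2 led and were the mitochondrial genes among the 50 most counted genes. The highest count of any gene in any library was 1359.

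The nuclear genes that keep, read and translate the mitochondrial genome were looked up as a list of 52 symbols, of which 51 were in the annotation, and all 51 were tested. By edgeR's quasi-likelihood test 1 had an unadjusted p under 0.05, where 2.83% of all genes tested did, and none an adjusted p under 0.05, with 30 higher and 21 lower and a median log2 fold change of 0.04. The 1 gene was Ssbp1, which coats single-stranded mitochondrial DNA. It was at 83.0 ± 9.99 cpm (n = 4, SD) in DJ-1+/+ and 67.8 ± 10.8 cpm (n = 5, SD) in DJ-1-/- mice, a log2 fold change of -0.29 (SE 0.13, unadjusted p = 0.0452). The mitochondrial RNA polymerase Polrmt was at 33.2 ± 11.3 and 38.5 ± 5.59 cpm, and Tfam, which packs mitochondrial DNA and starts its transcription, at 91.8 ± 7.35 and 92.9 ± 6.60 cpm (SD, n = 4 and n = 5). Lrpprc and Slirp, the pair that holds mitochondrial mRNAs stable, were at 116 ± 13.6 and 120 ± 7.48 cpm in DJ-1+/+ and at 119 ± 3.95 and 118 ± 11.1 cpm in DJ-1-/- mice.

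Nuclear genes grouped by their symbols under complexes I, III, IV and V were mostly above 0 in log2 fold change. Of 80 such genes tested, 59 had a positive and 21 a negative log2 fold change. The medians were 0.04 over 38 complex I genes, 0.10 over 9 of complex III, 0.10 over 17 of complex IV and 0.04 over 16 of complex V. The median over all genes tested was 0.01. These genes were measured in the same libraries, so their signs are not independent observations. An unadjusted p under 0.05 was reached by 4 of the 80, all higher, where 2.83% of all genes tested reached it and 1.57% were called higher. The 4 were Ndufb5, Ndufa4l2, Cox7b and Atp5j2. All genes of these groups were placed by symbol alone, as Ndufa4 and Ndufa4l2 were under complex I. Whether each is a subunit of that complex was not checked. Ndufb5 of complex I was at 177 ± 14.7 cpm (n = 4, SD) in DJ-1+/+ and 204 ± 13.99 cpm (n = 5, SD) in DJ-1-/- mice, a log2 fold change of 0.21, and Cox7b of complex IV had one of 0.21 as well. Ndufa4l2 had 0 to 1 counts in DJ-1+/+ and 1 to 6 counts in DJ-1-/- libraries. Of 77 proteins of the mitochondrial ribosome tested, 47 were higher and 30 lower with a median of 0.03, and 4 had an unadjusted p under 0.05 (2.83% of all genes tested did), Mrpl32, Mrpl52 and Mrpl39 higher and Mrpl15 lower. None of these nuclear genes had an adjusted p under 0.05. The difference between the mitochondrial and the nuclear groups was not tested.

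**Figure D5:**
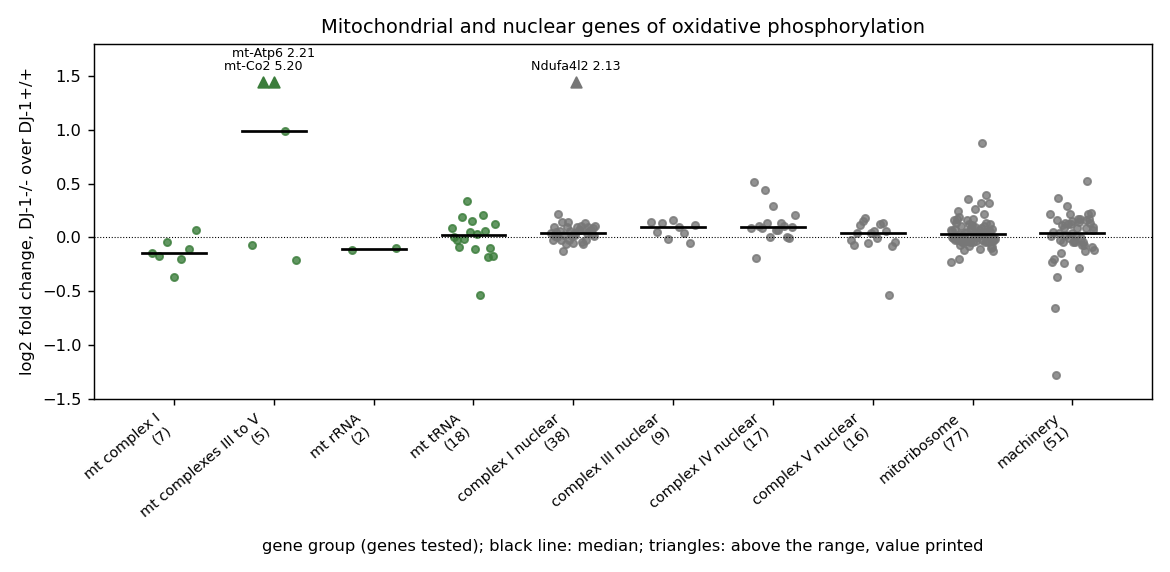
Log2 fold change, DJ-1-/- over DJ-1+/+ (vertical axis), of the mitochondrial genes tested (green) and of nuclear gene groups (grey), with a black line at each median and the number of genes under each group (horizontal axis). Complex I mRNAs of mitochondria have a median of -0.15 and nuclear genes placed under complex I by symbol one of 0.04. The triangles are mt-Co2, mt-Atp6 and Ndufa4l2, whose values lie above the range and rest on low counts.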

How the data were processed

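The authors deposited UMI counts per Ensembl gene identifier for each mouse, as whole numbers without normalization, listing genes with at least 1 count. The submitters' processing notes name fastp 0.20.0, STAR 2.7.3a, Subread with featureCounts 2.0.0, UMI-tools 1.0.0 and GRCm38. Their options, the annotation, the use of strand and the treatment of reads fitting several places are not given in the sources used here. Counts were joined by identifier, with 0 for an unlisted gene, and named from GENCODE M21. The 18127 genes that reached 10 counts in all libraries together were tested with edgeR 4.0.16 in R 4.3.3 (TMM, glmQLFit, glmQLFTest, genotype as the only term, Benjamini-Hochberg adjustment). The SE is the log2 fold change divided by the square root of F. Nuclear copies were found with BLAST 2.17.0, using a mitochondrial sequence of 15422 bases joined from the annotated transcripts, 57 of them unknown. Scripts were tested on simulated data. Alternatives were RLE factors, library totals, nuclear scaling, other filters, DESeq2 1.42.0, a likelihood ratio test, Xist as covariate, a replicate block, thinned counts and libraries left out. Every mitochondrial gene was named, tRNA genes with values if they had at least 10 counts, besides Park7, machinery genes with an unadjusted p under 0.05 and 4 known regulators, and the copies with most counts. Copies and nuclear genes named beyond these, and the grouping by the copied stretch, were chosen after values were seen. Members and lists were chosen with earlier results of these data known. Each library is a different animal. Counting error and animal spread both enter the p-values, and floors cover counting error only.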

Additional observations from a re-analysis of the deposited data

Results flagged for a closer look

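Within a genotype, 5 of 70 groups of cpm values held a library far from the others. A rate of 1 in 20 would give 3.5, but that rate may not hold for genes with few counts, such as mt-Atp8. mt-Rnr2 was at 448 cpm in DJ-1-/- replicate 3, against 332 to 364 cpm in the other DJ-1-/- libraries. mt-Tn was at 30.7 cpm in DJ-1+/+ replicate 2, against 19.0 to 20.9 cpm in the other DJ-1+/+ libraries. In DJ-1-/- replicate 1 mt-Co2 was at 126 cpm, against at most 1.95 cpm in the other DJ-1-/- libraries, and mt-Co3 was at 16.02 cpm, against at most 4.55 cpm. mt-Atp8 was at 1.16 cpm in DJ-1+/+ replicate 3, which is 1 count, against 0 counts in the other DJ-1+/+ libraries.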

How the results depend on the processing

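Of 634 comparisons of a mitochondrial gene with an alternative, 588 kept their direction. The other 46 fell on 16 genes, of which 14 are tRNA genes and the other two mt-Nd3 and mt-Co3, and 8 of the 46 moved by more than the SE of the gene. The count of mitochondrial genes with an adjusted p under 0.05 was 0 under every alternative except without a filter on low counts, where it was 2, mt-Co2 (log2 fold change 5.21, adjusted p = 1.41e-05) and mt-Atp6 (2.21, adjusted p = 4.00e-05), with 36 of 26602 genes called (0.135%) in edgeR's test. In the other alternatives the adjusted p of this pair ran from 0.174 for mt-Co2 and 0.411 for mt-Atp6, both in the replicate block, to 0.999992. The count with an unadjusted p under 0.05 was 3 to 8 with each library left out in turn, with 8 without DJ-1+/+ replicate 2, and 1 without the 11 genes of the copied stretch, an alternative chosen after seeing the data. The unadjusted p of mt-Nd4l was under 0.05 in 19 of 20 alternatives (0.0534 with the replicate block), of mt-Atp6 in 19 of 20 and of mt-Cytb in 14 of 20. With the Xist covariate mt-Cytb had an unadjusted p of 0.0856 in edgeR's quasi-likelihood test. The median log2 fold change was -0.13 to 0.07 with each library left out, 0.04 with the Xist covariate and 0.13 without DJ-1+/+ replicates 1 and 4 together. In that last setting mt-Tl1 (0.093), mt-Ti (0.28), mt-Tm (0.085), mt-Tc (0.0059), mt-Nd3 (0.20), mt-Tr (0.25), mt-Te (0.28) and mt-Tt (0.11) turned above 0 and mt-Tn (-0.029) below it. With the Xist covariate mt-Tl1 (0.035), mt-Ti (0.073), mt-Nd3 (0.083) and mt-Te (0.11) turned above 0 and mt-Tn (-0.042) below it. mt-Tv was -0.0086 with RLE factors, -0.0025 with at least 50 counts and -0.0087 with DESeq2, mt-Tm 0.10 with the replicate block and mt-Te 0.012 with thinned counts. With each library left out, values ran on both sides of 0 for mt-Nd3 (-0.22 to 0.33), mt-Co3 (-0.24 without DJ-1-/- replicate 1, to 1.93), mt-Tf (-0.21 to 0.39), mt-Tv (-0.099 to 0.080), mt-Tl1 (-0.067 to 0.060), mt-Ti (-0.27 to 0.096), mt-Tm (-0.13 to 0.094), mt-Ta (-0.0074 to 0.12), mt-Tg (-0.37 to 0.59), mt-Tr (-0.83 to 0.048), mt-Th (-0.13 to 0.65), mt-Ts2 (-0.19 to 0.24) and mt-Te (-0.24 to 0.11). The share of counts differed by -0.0301 to -0.000794 percentage points with each library left out. Machinery genes with an unadjusted p under 0.05, 1 in the fit reported, were 0 with DESeq2, 0 with the Xist covariate, 2 with the replicate block and 0 to 2 with each library left out. Nuclear respiratory chain and mitochondrial ribosome genes, 8 in the fit reported, were 3 with DESeq2, 3 without DJ-1+/+ replicates 1 and 4 together and 4 to 15 with each library left out, with 15 without DJ-1+/+ replicate 3. The causes were not tested. The replicate numbers do not pair the libraries, since same-numbered libraries correlated at 0.29, 0.041, -0.119 and -0.186 over 10770 genes and 1 of 4 matched its own number best, and with the replicate block 5 mitochondrial genes had an unadjusted p under 0.05. mt-Co2 had no value without DJ-1-/- replicate 1, where it fell under the filter, and no p with DESeq2.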
